A study of Mus musculus with 10 samples.

Results

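The chromatin loops described here were the strongest that a macrophage Hi-C experiment found at the same place in every treatment group. Hi-C ligates stretches of DNA that are near each other in the nucleus and counts the ligated pairs by sequencing. A loop was a pair of 10 kb bins on 1 chromosome, and its value was a whole-number count of contacts. Contacts fall steeply with the distance between bins, so strength was taken as the contacts of a bin pair over the median of its list for bins the same distance apart. Members were chosen by these contacts. A member was an autosomal bin pair listed in the same bins in all 5 groups with a strength of 1.5 or more in every list. The choice left 1438 bin pairs of 152753 distinct autosomal pairs in any list and of 14041 in all 5 lists (10.2%, 95% Wilson interval 9.75 to 10.8). Their contacts and strengths are therefore given as a description and were not tested.

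Cells were bone marrow-derived macrophages (MFs) of wild-type female C57BL/6 mice aged 2 to 3 months, grown from marrow with M-CSF, and treatments began on day 6. The control group, M0[CTR], had no cytokine beyond M-CSF. For M2[IL-4], IL-4 was added at 20 ng/ml for 24 h, and for M2p[pIL-4] it was then washed out and the cells rested for 24 h. For IFNG, 20 ng/ml of this cytokine was given for 3 h to unprimed cells, and for pIL-4 + IFNG the same dose was given to cells primed with IL-4 and rested. The 10 samples formed 5 groups of 2 replicates, but each group had 1 loop list, so no difference between lists has a replicate check. Nothing in a loop list identifies a cell type, so the MF label could not be checked against markers.

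CTCF binds a directional DNA sequence and halts cohesin, the ring complex that extrudes chromatin into loops. Loops held this way typically have CTCF sites that point toward each other, which is called the convergent orientation. Other contacts join promoters with enhancers or with other promoters. In MFs, IL-4 acts through STAT6 and drives alternative polarization, whereas IFNG drives inflammatory activation.

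CTCF sites were located as exact matches to the 14-base core of the CTCF consensus, a pattern with several degenerate positions, searched on both strands of GRCm38. Of the 875 patches of touching members, 62 had exact matches on 1 strand only at each anchor of their strongest member, and in 52 of these the matches were convergent. The sequences below come from 4 of the strongest such loops and are shown because they let the orientation be read directly. Each is written 5′ to 3′ on the strand of the match, so a left anchor on the plus strand and a right anchor on the minus strand point into the loop. Capitals mark the 14 bases that match, the coordinates give those 14 bases, and lower case gives 8 flanking bases per side.
Dusp4 loop, left anchor, chr8:34485124-34485137, plus strand, intergenic: atttacctCCACTAGGGGGCACtcttctcc
Dusp4 loop, right anchor, chr8:34816341-34816354, minus strand, Dusp4 intron: agcttacgCCACTAGGTGGCGCtgtgggtc
Arhgef28 loop, left anchor, chr13:97235222-97235235, plus strand, intergenic: cactgcagCCAGCAGAGGGCACacttgctt
Arhgef28 loop, right anchor, chr13:97938136-97938149, minus strand, Arhgef28 intron: cagtaccaCCACCAGGTGGCGCatgaagtc
Bcl2l11 loop, left anchor, chr2:127889579-127889592, plus strand, Acoxl intron: aggaccaaCCACCAGAGGGCAGcaaagacc
Bcl2l11 loop, right anchor, chr2:128573405-128573418, minus strand, intergenic: accattggCCAGTAGGTGGCAGaagctgtc
Bcl6 loop, left anchor, chr16:23984363-23984376, plus strand, Bcl6 intron: gtgacctaCCACTAGGTGGCGGactcagtc
Bcl6 loop, right anchor, chr16:25064748-25064761, minus strand, intergenic: gatgtcatCCAGCAGAGGGCGCtcttggag

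These 4 loops spanned 330 to 1080 kb. The Dusp4 loop ends inside Dusp4, a phosphatase that inactivates MAP kinases, and had 85 contacts in M0[CTR], 78 with IL-4 (M2[IL-4]), 81 after washout (M2p[pIL-4]), 97 with IFNG alone and 90 with IFNG after priming (pIL-4 + IFNG). The lists are given in this order below. The Arhgef28 loop, whose right anchor held a second match not printed, had 54, 50, 47, 36 and 45. The Bcl6 loop reached 1080 kb from the promoter of this transcriptional repressor and had 40, 29, 23, 28 and 31 contacts, highest in M0[CTR]. The Bcl2l11 loop surrounds the gene of the proapoptotic protein BIM and had 46, 48, 42, 31 and 49 contacts, lowest in IFNG.

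The lists held 53424 to 67728 bin pairs and 2174945 to 2787117 contacts. These are the contacts of called pairs and not the sequencing depth. Members made up 2.13 to 2.70% of the autosomal pairs of a list, 27.4 to 36.3% of its strong pairs and 3.71 to 4.61% of its contacts, with the lower shares in the 2 longest lists, M2p[pIL-4] and pIL-4 + IFNG. The median member had 62 to 65 contacts and a strength of 1.95 to 2.05, depending on the list, and the range over all lists was 12 to 299 contacts. Many members lay close to the limit, as 419 had a lowest strength from 1.5 to under 1.6 and 576 other bin pairs had one from 1.4 to under 1.5. The weakest members stood at 1.5 and the nearest pairs outside at 1.497, 1.493 and 1.493. A lowest strength of 2 or more was found in 295 members, and 3 or more in 30.

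**Figure D1:**
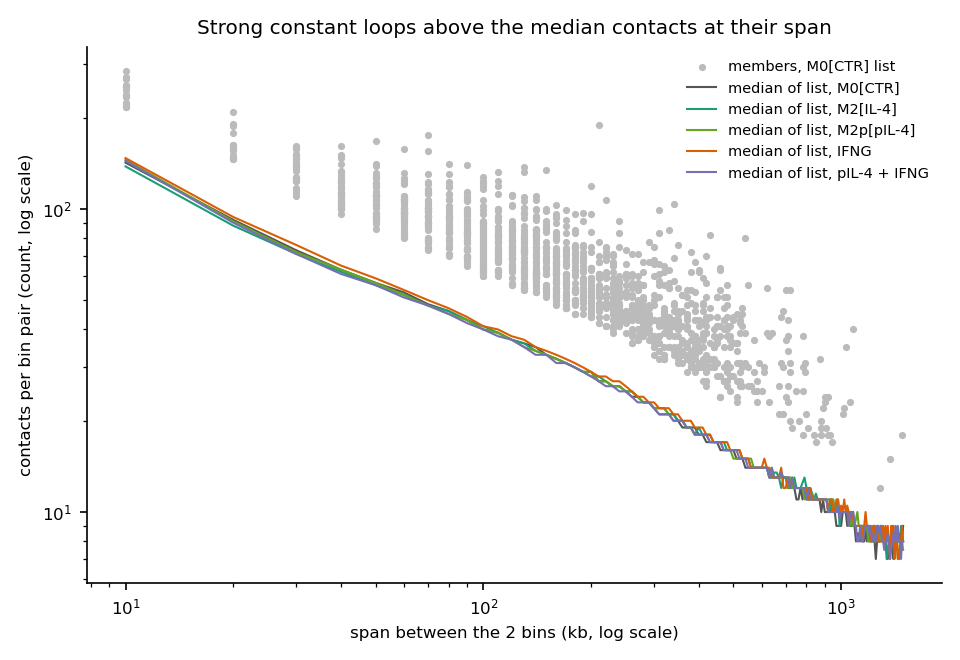
Contacts of each member in the M0[CTR] list (points) and the median contacts of all bin pairs at the same span in each of the 5 lists (lines), both axes logarithmic. The 5 medians run together, and members lie above them at every span, as the rule requires.

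Members were longer than the other bin pairs in all lists. Their median span was 170 kb (quartiles 100 and 300 kb, range 10 to 1480 kb), against 130 kb (70 and 230 kb) for the other 12603. Adjacent bins rarely met the rule, with 17 of 701 (2.43%, 1.52 to 3.85). The share was 7.40% at 20 to 90 kb, 11.95% at 100 to 490 kb and 14.8% at 500 kb or more. These shares depend on the rule, since a ratio to a median spreads more where counts are low. Along the 19 autosomes, members numbered 2.12 per 10 Mb on chromosome 3 and 13.1 on chromosome 11, and this density went with that of protein-coding genes (Pearson r = 0.68 and Spearman rho = 0.69 over 19 chromosomes, given as a description). The bin pairs in all lists were spread likewise, with 485 on chromosome 3 and 1514 on chromosome 11. The share of them that were members was 7.01% and 10.6% there, 8.22% and 7.92% on the gene-dense chromosomes 7 and 19 and highest, at 13.9%, on chromosome 13.

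Touching members formed 875 patches, of which 566 were single bin pairs, 187 held 2 and 122 held 3 or more, up to 11. The members used 2037 anchor bins. Of these, 210 belonged to 2 or more patches and 26 to 3 or more. The anchor in most patches lay in Clic6, a chloride channel family gene, at chr16:92530001-92540000, and it met 6 separate bins 780 to 1010 kb away. The anchor with the transcription start site (TSS) of Plk2, a stress-inducible kinase, at chr13:110390001-110400000 belonged to 4 patches, and so did 2 anchors outside protein-coding genes, at chr1:39000001-39010000 and at chr8:126490001-126500000, the left end of the leading loop around Irf2bp2. In 23 bins a member ended on the left and another on the right.

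The strongest member joined the bin with the TSS of Cebpb and Tmem189 (chr2:167680001-167690000) to an intergenic bin 210 kb downstream (chr2:167890001-167900000). Cebpb encodes C/EBPβ, a transcription factor of MF differentiation and inflammatory responses. The loop had 189 contacts in M0[CTR] (exact 95% Poisson interval 163 to 218), 174 and 191 in the other lists without IFNG, and 229 and 223 in the lists with it, which was 6.21 to 8.26 times the median at this span. Both lists with IFNG were higher than the 3 without it. Its patch held 4 members. The touching pair with the next-highest strength had 119, 103, 108, 104 and 119 contacts, an order that did not separate the lists with IFNG. The pair after it, with 70, 64, 73, 78 and 67, did not separate them either. The weakest, with 45, 46, 54, 62 and 58, was higher in both lists with IFNG.

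The next 3 loops by strength had no TSS in either anchor. A 340 kb loop around Spred1, an inhibitor of Ras and ERK signalling, had 104, 108, 107, 109 and 100 contacts, 4.95 or more times the median in every list. A 430 kb loop around Irf2bp2, a corepressor that partners IRF2, had 82, 86, 106, 103 and 83 contacts and belonged to a patch of 10 members. A 540 kb loop around Sgk1, the serum- and glucocorticoid-regulated kinase, had 80, 87, 87, 80 and 70. After scaling, the highest count of these 3 loops was 1.11 to 1.27 times the lowest.

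Several strong loops started at promoters. The promoter of Fam43a met a bin in Xxylt1 380 kb away with 72, 88, 76, 76 and 73 contacts. The promoter of Ccnd1, which encodes the cell cycle regulator cyclin D1, met Tpcn2, a lysosomal ion channel gene, with 99, 90, 82, 100 and 88. The Gadd45g promoter, of the growth arrest and DNA damage family, met an intergenic bin 390 kb away with 67, 71, 63, 86 and 77 contacts. A bin 0.073 kb from the TSS of its relative Gadd45b met a bin in Gng7, a G protein subunit gene, with 175, 178, 194, 189 and 186 contacts. This 70 kb loop was the strongest below 100 kb, and its highest scaled count was 1.07 times the lowest.

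At short span, a 60 kb loop on chromosome 17 enclosed the TSS of Lst1, Ltb, Tnf, Lta and Gm16181, and so the tumor necrosis factor and lymphotoxin genes. It joined the promoter of Aif1, the MF marker IBA1, to that of Nfkbil1 and Atp6v1g2 with 157, 147, 156, 170 and 169 contacts. A shorter member joined the Tnf and Lta promoters to the same bin with 115, 139, 128, 135 and 113. A 90 kb loop on chromosome 1 enclosed Fcgr2b, the inhibitory IgG receptor, together with Fcrla and Fcrlb, and had 139, 145, 145, 148 and 127. Among adjacent bins the strongest member lay at Abca7 and Arhgap45 with 268, 278, 265, 287 and 282 contacts, and the third held the promoters of Rxrb, Slc39a7 and Col11a2 with 252, 266, 246, 260 and 283. The longest member spanned 1480 kb between the bin with the TSS of 3 histone genes, Hist1h2ag, Hist1h2bj and Hist1h4i, and a bin 1.05 kb from that of Hist1h4h. It had 18, 17, 17, 23 and 14 contacts. Copies of histone genes are near-identical, so reads there may be assigned with less certainty.

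**Figure D2:**
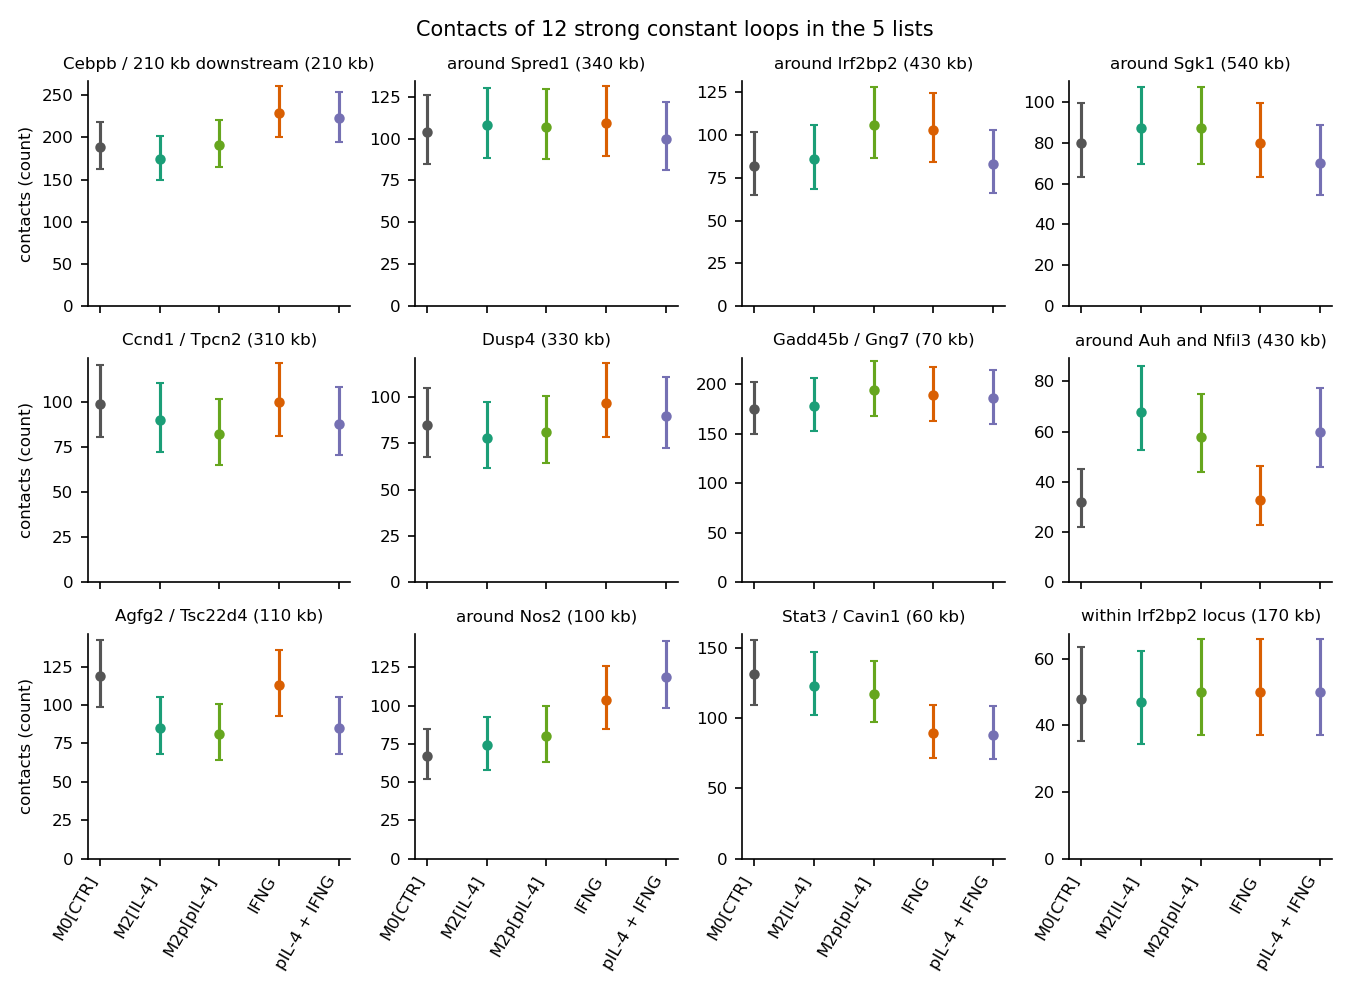
Contacts of 12 members in each of the 5 lists (points) with exact 95% Poisson intervals, which cover counting error only, every vertical axis starting at 0. The first 7 panels are leading loops by strength, the next 4 are loops with wide gaps between lists with and without IL-4 or IFNG, and the last is the member with the smallest spread.

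How much a member varied was measured as its highest over its lowest contacts across the 5 lists, each list divided by its median ratio to M0[CTR] over the bin pairs in all lists (factors of 1 to 1.04). The median was 1.30 (1.29 to 1.31), against 1.36 for the other bin pairs in all lists, which had fewer contacts. At like contacts members had the lower median in 3 of 4 classes. With a mean of 20 to 40 contacts the medians were 1.38 for members and 1.42 for the others, with 40 to 80 they were 1.31 and 1.34, with 80 to 160 they were 1.253 and 1.227, and with 160 to 320 they were 1.16 and 1.17. The mean ratio of the variance between lists to that of counting noise was 0.94 in members and 0.86 in the others, where 1 is counting noise alone. The rule limits this spread, because it removes pairs that are low in any list. After the scaling, each list was the highest of the 5 in 18.2 to 21.6% of members and the lowest in 17.9 to 21.7%. The scaling itself brings the lists level, so these shares cannot show whether a list stood apart. The steadiest member, 170 kb from the Irf2bp2 promoter, had 48, 47, 50, 50 and 50 contacts.

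**Figure D3:**
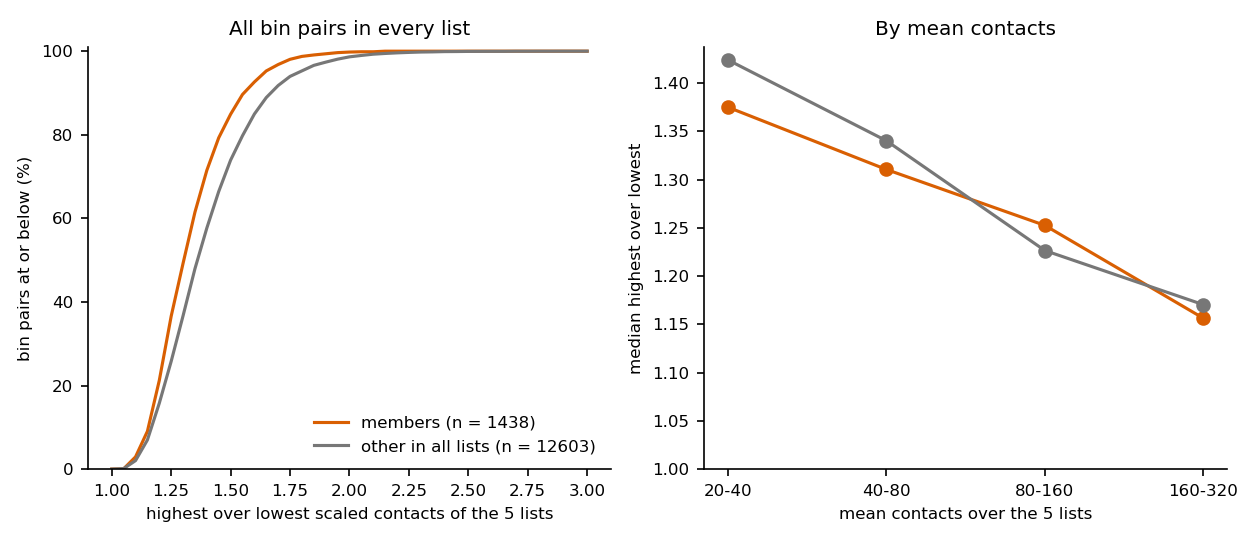
Left, the cumulative share of bin pairs by their highest over lowest scaled contacts across the 5 lists, for 1438 members and 12603 other bin pairs in all lists. Right, the median of this ratio by mean contacts, where both sets fall together as contacts increase.

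Contacts were compared between lists after scaling, which itself centres the ratios near 0, so the medians are no evidence on a common shift. The comparisons with M0[CTR] share that list. M2[IL-4] against M0[CTR] gave a median log2 ratio of 0.00, with 21 members at least 1.5-fold higher and 18 lower, 2.71% of members against 3.85% of all bin pairs in both lists. After washout, M2p[pIL-4] against M0[CTR] gave 16 higher and 20 lower, 2.503% against 3.34%. IFNG against M0[CTR] gave 19 higher and 17 lower, 2.503% against 3.35%. In primed cells, pIL-4 + IFNG against M2p[pIL-4] gave 27 higher and 16 lower, 2.99% against 3.49%. The medians were 0.00, 0.00, 0.00 and 0.01 on the log2 scale in this order. Members have more contacts than an average pair, which by itself lowers the share past a fold, so nothing is read from these shares.

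**Figure D4:**
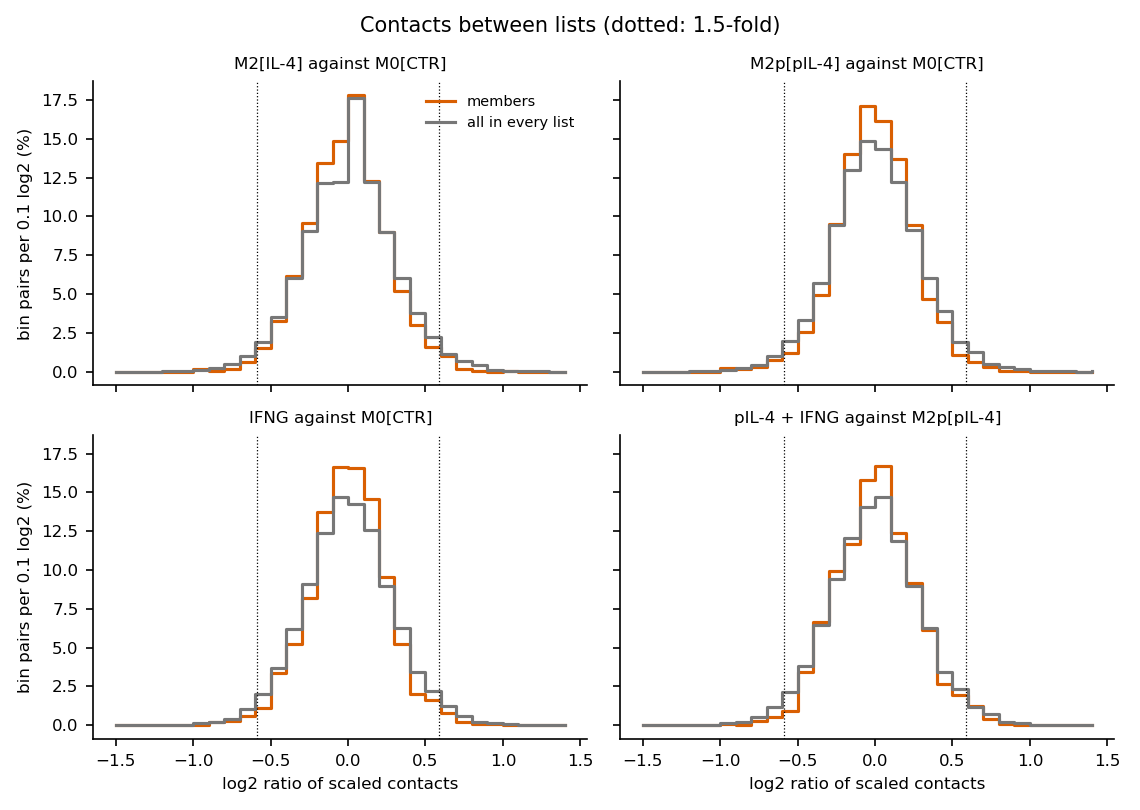
Distribution of the log2 ratio of scaled contacts in the 4 comparisons, as the share of bin pairs per step of 0.1, for members and for all bin pairs in every list, with dotted lines at 1.5-fold. The distributions overlap and centre on 0, as the scaling makes them do.

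Members in which all lists with a cytokine stood on 1 side of all lists without it were counted next. The 3 lists of cells exposed to IL-4 were above the other 2 in 138 members (9.597%), against 9.6% of all bin pairs in every list, and below them in 132 (9.18%), against 9.09%. Both lists with IFNG were above the other 3 in 186 members (12.9%, 11.3 to 14.8), against 11.2%, and below them in 153 (10.6%), against 10.8%. These shares were close to those of all bin pairs in every list, except that the interval of the higher IFNG share began just above 11.2%. Touching members share bins, so that interval is too narrow, and the difference was not tested.

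The members with wide gaps described next were picked after their values were seen. A 430 kb loop around Auh and Nfil3, the latter a transcription factor of immune cells, on chr13 between bins 52660001 and 53090001 had 68, 58 and 60 contacts in the 3 lists with IL-4, but 32 in M0[CTR] and 33 in IFNG. Its ratio of 2.12 was the largest of any member, and even its lowest strength was 1.83. The 3 touching bin pairs in all lists gave 59, 94, 79, 88 and 93 contacts in sum, lowest in M0[CTR] but not low in IFNG. A 110 kb loop between Agfg2 and Tsc22d4 had 85, 81 and 85 contacts in the lists with IL-4, and 119 in M0[CTR] and 113 in IFNG. Its 6 touching pairs gave 345, 302, 324, 343 and 287, lower in the 3 lists with IL-4 as well.

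For IFNG, the widest gap upward was at Nos2, which encodes the inducible nitric oxide synthase of activated MFs. A bin inside the gene (chr11:78950001-78960000) met one 100 kb away with 67, 74 and 80 contacts in the lists without IFNG, and 104 and 119 in those with it. Of its neighbours, 2 bin pairs were in all lists and gave 112, 118, 103, 121 and 155 in sum, highest in pIL-4 + IFNG, with IFNG no higher than M2[IL-4] after scaling. The widest gap downward was in a 620 kb loop around Sgk1, with 55, 54 and 55 contacts in the lists without IFNG and 32 and 41 in those with it, but its 3 touching pairs gave 73, 78, 64, 77 and 71 and did not separate the lists. A 60 kb loop between Stat3, a transcription factor activated by many cytokines, and Cavin1 was next, with 131, 123 and 117 contacts in the lists without IFNG and 89 and 88 in those with it. Its 6 touching bin pairs gave 440, 416, 444, 348 and 375, lower in both lists with IFNG as well. At Irf2bp2, 1 pair of the large patch had 35, 52, 54, 70 and 76 contacts while the strongest pair, 1 bin away, did not separate these lists. In a count of joined DNA from many cells, more cells with a contact and a more frequent contact in each cell cannot be told apart.

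The rule was also applied to 4 lists at a time, and the fifth, which is from another treatment group and is no replicate, was then read. Of 1555 to 1696 bin pairs strong in 4 lists, 97.1 to 99.9% were listed in the fifth, and 84.8 to 92.5% were strong there. Other bin pairs shared by the same 4 lists were below the limit in at least 1 of them. Of these, 81.6 to 89.3% were listed in the fifth and 12.2 to 17.8% were strong. Both sets were split by strength and were not matched for contacts, so nothing is read from the differences. The median strength in the list left out was 1.87 to 2.00, and 1.93 to 1.95 in the 4 used. The lowest recovery was in M0[CTR], the shortest list, where 50 of 1696 were not listed. Between lists, strengths of the 1438 members had Pearson r of 0.63 to 0.69 and Spearman rho of 0.50 to 0.59, as a description. The rule removes low strengths in every list, and this narrowed range by itself tends to lower such correlations. How firmly strength is ranked is therefore not read from them.

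Anchor sequence was not used by the rule. An exact CTCF match at both anchors was found in 83 members (5.77%, 4.68 to 7.10), against 2.18% (1.94 to 2.45) of the other bin pairs in all lists. Weighting the others to the span of the members left 2.16%. Of the 3797 bin pairs that were strong in at least 1 list but missing from another, 1.32% (1.00 to 1.73) had a match at both anchors. A match at 1 or both anchors was found in 39.1% of members, 27.1% of the others in all lists and 21.04% of strong pairs missing from a list. With up to 1 mismatch, matches at both anchors reached 43.6% of members, 28.4% of the others in all lists and 20.7% of strong pairs missing from a list. Touching members share bins, so these intervals are too narrow, and they cover counting error only. With 1 member per patch, exact matches at both anchors rose to 7.31%.

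Orientation could be read in 81 members with exact matches on 1 strand at each anchor. It was convergent in 68 (84.0%, 74.5 to 90.4), on the same strand in 11 and divergent in 2. Among the other bin pairs in all lists it was convergent in 159 of 252 (63.1%, 57.0 to 68.8). With up to 1 mismatch, 293 of 404 members (72.5%, 68.0 to 76.7) and 55.5% of the others were convergent. The orientation shares were not weighted to span. Touching bin pairs share bins and so matches, which makes these intervals, and those by strength below, too narrow. With 1 member per patch, 83.9% of 62 were convergent.

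The share rose with strength across all bin pairs in every list. Of pairs with a lowest strength under 0.75, 24.7% had an exact match at 1 or both anchors, 37.3% did at 1.5 to under 2, 44.5% at 2 to under 3, and 60% (18 of 30, 42.3 to 75.4) at 3 or more. The convergent share with up to 1 mismatch rose from 53.3% to 69.8%, 78.8% and 11 of 11 over the same classes. Their median span rose as well, from 110 kb to 160, 180 and 365 kb, and these shares were not weighted to span. Of the 12 leading patches, those at Dusp4, Spred1, Sgk1 and Ccnd1 had matches, within 1 mismatch, on the plus strand only at the left anchor and on the minus strand only at the right. The 720 kb loop on chromosome 8, with 54, 48, 50, 44 and 48 contacts, had none at either anchor.

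**Figure D5:**
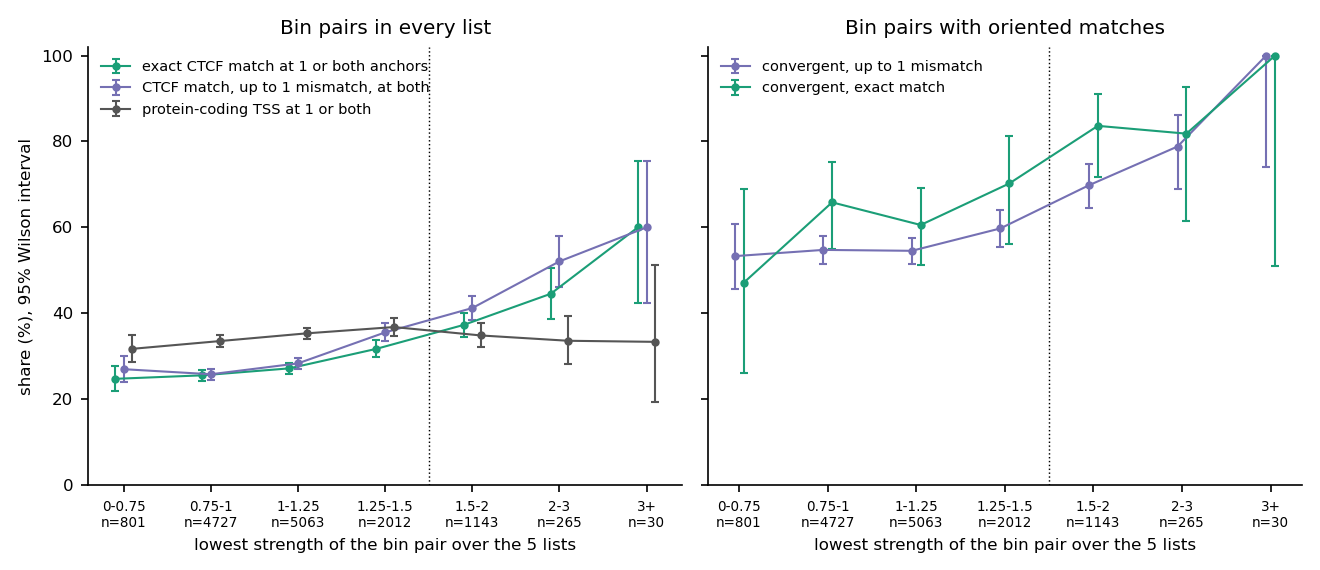
Bin pairs in every list by lowest strength over the 5 lists, with the number in each class below the axis and members right of the dotted line. Left, shares with a CTCF match or a protein-coding TSS, and right, the convergent share among pairs with oriented matches, with 95% Wilson intervals. CTCF and convergent shares are higher in the member classes than in those left of the line, though not every step rises. The TSS share stays between 31.7 and 36.8%.

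Anchor bins differed in composition too. The median GC content was 47.7% in member anchors, 46.8% in anchors of the other bin pairs in all lists and 41.4% in all autosomal bins. GATC sites, which the MboI enzyme cuts, had medians of 27, 25 and 24 per bin. An exact CTCF match was present in 21.6%, 12.6% and 2.53% of these bins. The part of GC content and of cutting sites in the CTCF shares was not tested.

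Promoters were as frequent at members as at the other bin pairs before weighting by span. A protein-coding TSS lay in 1 or both anchors of 497 members (34.6%, 32.1 to 37.1), against 34.6% of the other bin pairs in all lists, or 30.9% of them weighted to the span of the members. Both anchors held a TSS in 81 members (5.63%), against 5.54%, or 4.21% after weighting. In all autosomal bins a TSS was found in 7.76%, against 20.1% of member anchors. At the anchors of members, the other listed bin pairs, more than 5 bins away, had a median strength of 1.11 to 1.12. At the anchors of the other bin pairs in all lists it was 1.04. The part of the anchor bin itself in the strength of a member was not tested.

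Of 20807 protein-coding autosomal genes, 484 had a TSS in a member anchor (2.33%). Fixed gene lists were set beside this share. Of 30 MF identity genes, Cebpb, Mertk and Aif1 had one (10%, 3.46 to 25.6). Among 29 IL-4-induced genes it was Egr2 and Cish, among 30 IFNG-induced genes Irgm1 and Parp14, among 30 inflammatory genes Tnf, Ccl7 and Tnfaip3, and among 29 housekeeping genes Actb and Tubb5. No gene was found among 17 genes of the loop machinery such as Ctcf and Rad21, 70 developmental transcription factors or a list of 13 genes named by the study. Egr2, which the study also singles out, was counted with the IL-4-induced genes and not in that list. Genes with a TSS at any bin pair in all lists are the closer reference. Of 3146 such genes, 15.4% were at a member, against 3 of 14, 2 of 10, 2 of 15, 3 of 12 and 2 of 9 in the first 5 gene lists. The lists with no gene at a member had few such genes, with 4 of the loop machinery, 5 developmental and 5 study-named. These counts are too small to set a list apart.

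By the rule, the loops of cytokine-induced genes were strong in untreated cells as well. Cish, a STAT-induced inhibitor of cytokine signalling, met Hemk1 40 kb away with 150, 157, 160, 165 and 160 contacts, all within 1.07-fold. Egr2, an IL-4-induced transcription factor, met an intergenic bin 190 kb away with 67, 55, 56, 71 and 77, lowest in the 2 lists M2[IL-4] and M2p[pIL-4]. Irgm1, an IFNG-induced GTPase of pathogen defense, met a bin within Ifi47, another such GTPase gene, 210 kb away with 67, 81, 58, 62 and 76. Parp14 met the shared promoter bin of Dtx3l and Parp9 with 100, 78, 84, 95 and 80.

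Ccl7, a monocyte chemokine, met Ccl1 with 57, 76, 62, 69 and 90 contacts, highest in pIL-4 + IFNG. Tnfaip3, which encodes the NF-κB inhibitor A20, met an intergenic bin 170 kb away with 70, 49, 59, 56 and 51, highest in M0[CTR]. Mertk, the receptor by which MFs take up apoptotic cells, met Tmem87b with 71, 96, 91, 77 and 88, lowest in M0[CTR]. The housekeeping gene Actb had 133, 137, 134, 122 and 145. None of these differences has replicate support.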

How the data were processed

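The 10 Hi-C libraries came from crosslinked chromatin cut with MboI and ligated in the nucleus, with no antibody enrichment. The deposited loop lists give raw counts of contacts per pair of 10 kb bins, 1 list per group, with replicates apparently merged by the authors. The submitters' processing notes name FastQC, Bowtie2, HiC-Pro, Juicer, HOMER and mm10. The study's methods describe balanced maps and HICCUPS loops at another bin size, so the caller, threshold and expected contacts behind these lists are not given in the sources used here.

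Strength, the rule, patches (touching bin pairs), anchor features and count ratios were computed in Python 3.11.15 (matplotlib 3.10.9, scipy 1.17.1, pandas 2.3.3, numpy 2.4.6). For ratios between lists, each list was divided by its median ratio to M0[CTR]. TSS were those of GENCODE M21, and sequence was RefSeq GRCm38. The code of the rule was checked on simulated lists whose seeded loops had more contacts than the members, which does not bear on members close to the limit. Shares carry 95% Wilson intervals and single counts exact Poisson intervals, both for counting error only. No test between groups was possible with 1 list per group.

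The members and gene lists were chosen with earlier results of these data known. Named loops were the strongest of the top 3 patches in each of 4 span classes, the longest, the most and least variable, the busiest anchors, the strongest loop of up to 4 genes per list and the strongest patches with convergent exact CTCF matches. A loop picked by these rules is not reported here. Other leading patches and the loops with the widest gaps by cytokine were picked after their values were seen. Alternatives were other strength limits and medians, matching within 1 bin, other motif, fold and TSS settings and, chosen after the data were examined, leaving out each list, classes of strength and sets of lists by cytokine.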

Additional observations from a re-analysis of the deposited data

How the results depend on the processing

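Of 68 alternative values over 17 results, 36 stayed close to those reported and 32 moved. The number of members was 3450 with a strength limit midway between 1 and 1.5, 295 with a limit of 2, 2614 when matched within 1 bin and 875 with 1 member per patch. It was 1622 with medians over 5 spans, 1441 with the X chromosome, where 3 of 21 bin pairs met the rule, and 1555 to 1696 when the rule ran without 1 list. In the order of the lower limit, the higher limit, matching within 1 bin and 1 member per patch, the median of highest over lowest contacts became 1.31, 1.27, 1.36 and 1.29 (1.28 with medians over 5 spans), and the share with exact CTCF matches at both anchors 3.97%, 8.81%, 4.02% and 7.31%. That share was 43.6% with up to 1 mismatch and 0.63% with a fixed 14-base consensus, and the convergent share was 72.5% with up to 1 mismatch. In all 14 combinations of 7 rules and 2 motif settings members exceeded the other bin pairs in both shares. These rules share many members, so the combinations are not independent. Matching within 1 bin and the fixed consensus were not among them. A TSS at 1 or both anchors was found in 37.1% with medians over 5 spans, 63.4% with TSS within 1 bin and 52.1% with all annotated genes.

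At a fold midway between 1 and 1.5, members past it against M0[CTR] were 17.9% for IFNG, 19.9% for M2[IL-4] and, after washout, 17.4% for M2p[pIL-4], and 21.3% for pIL-4 + IFNG set against M2p[pIL-4]. At 2-fold they were 0.0695% for M2[IL-4] and 0% for the other 3, which allows up to 3 of 1438. With TSS within 1 bin of an anchor, 1065 of all genes (5.12%) were at members, among them 5 MF identity, 3 IL-4-induced, 4 IFNG-induced, 5 inflammatory, 3 housekeeping, 1 developmental and 2 study-named. No paired analysis was possible because the replicates carry no list of their own, only their group does.

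Contacts limit what can be seen. The variance of a member between lists was on average 0.94 of that of counting noise. By mean contacts it ran from 0.73 at 20 to 40 contacts to 1.07 at 80 to 160. The rule limits this spread, so these values do not show how far contacts limit what is seen. The lists hold called pairs only, so a pair not listed in a group has no value there.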
